A study of Mus musculus with 21 samples.

Results

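Ifitm1, Ifitm2, Ifitm3, Bst2, Ly6a, Ly6e and Ly6c1, 7 genes for small surface and membrane proteins that are known as interferon-induced, were followed across pancreatic tumour cells of the mouse with and without EPHA2 editing. They were taken by gene symbol from a table of 24623 genes. All 7 passed the filter on low values, which kept 14337 genes. The set was chosen on the TPM of Ifitm1, whose level differs strongly between both knockout lines of the clone 6694c2. The comparison of those lines is therefore described without a test for every member, and so are the differences of Ifitm1 from WT in each of them.

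Messenger RNA was sequenced from sorted tumour cells of 2 clones, 6694c2 and 6419c5, 3 weeks after the cells had been implanted under the skin of C57BL/6 mice that received no treatment. Each clone had a parental line, written WT below as the table does (its sample titles hold no further word than the clone), and 2 lines labelled EPHA2-KO, called KOA and KOB after the columns of the table. There were 4 libraries of each line of 6694c2 and 3 of each line of 6419c5, 21 in all. No animal ages are given in the labels, and neither is the editing method or whether each library had an animal of its own. The p-values below rest on how far libraries of one line spread, which may be technical. A clone has 1 WT and 2 KO lines, so the edit and other differences between lines cannot be told apart.

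Interferon-induced transmembrane proteins (IFITM) sit in the plasma membrane and in endosomes, where they hinder the fusion of enveloped viruses with the cell. Tetherin, the product of Bst2, holds newly budded enveloped viruses at the cell surface. The Ly6 proteins are small proteins with a 3-finger fold that are attached to the outer membrane by a glycolipid anchor. Ly6a, also called Sca-1, is a widely used marker of stem and progenitor cells in the mouse, Ly6e is a receptor-like surface protein with roles in virus entry and placental cell fusion, and Ly6c1 marks endothelium and some leukocytes. Interferons act through receptors and Janus kinases on STAT and IRF transcription factors. IRF factors bind the interferon-stimulated response element (ISRE), and STAT dimers bind the gamma-activated sequence (GAS).

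The members lie in 3 places of the mouse genome (GRCm38/mm10, GENCODE vM21). Ifitm2 (chr7:140954837-140955987, minus strand), Ifitm1 (chr7:140967221-140969825, plus strand) and Ifitm3 (chr7:141009586-141010770, minus strand) fill 55.9 kb. Ly6e (chr15:74955051-74959905, plus strand), Ly6a (chr15:74994877-74998031, minus strand) and Ly6c1 (chr15:75044018-75048830, minus strand) fill 93.8 kb, and Bst2 lies apart (chr8:71534255-71537456, minus strand). All 7 are annotated as protein coding.

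Windows from 250 bases before to 50 bases after the RefSeq start (GRCm38.p6) were held for 5 of the 7 members: Ifitm1, Ifitm2, Ifitm3, Bst2 and Ly6c1. They were searched on both strands for the core of the ISRE, GAAANNGAAA, and for GAS, TTCNNNGAA. Of 32851 windows in the same table, 1131 (3.44%) held the first and 2726 (8.3%) held the second. The Bst2 window held 2 overlapping ISRE cores, at positions -130 and -124 from the start, and a GAS match at -136 that overlaps the first of them. The Ifitm2 window held 1 ISRE core, at -46. The Ifitm3 window held 2 just after the start, at 2 and 19, inside the annotated gene, with a GAS match at 13 that overlaps the second. No match of either motif was found in the Ifitm1 window or in the 2 windows of Ly6c1. A match is a description of the letters, and binding was not measured. The stretch before the start of Bst2 (chr8:71537473-71537722, minus strand), the sites of Ifitm2 (chr7:140955988-140956017, minus strand) and Ifitm3 (chr7:141010715-141010744, minus strand) and a stretch of the Ifitm1 window (chr7:140967826-140968027, plus strand) are shown from RefSeq. Bst2 and Ifitm1 were picked with their expression known, since Bst2 rose in every KO line and Ifitm1 differed most between lines. Motifs and expression did not go together in every member. Ifitm3 held both motifs and fell in 6419c5, while Ly6c1 held neither and rose in 6694c2. A relation of motifs to expression was not tested. The Ifitm1 stretch lies inside the annotated gene, between annotated exons, and stops short of the RefSeq start. Sequence before the first annotated exon of Ifitm1 was not searched. ISRE cores are in capitals, and sequences run 5′ to 3′ on the strand of the gene.
Bst2: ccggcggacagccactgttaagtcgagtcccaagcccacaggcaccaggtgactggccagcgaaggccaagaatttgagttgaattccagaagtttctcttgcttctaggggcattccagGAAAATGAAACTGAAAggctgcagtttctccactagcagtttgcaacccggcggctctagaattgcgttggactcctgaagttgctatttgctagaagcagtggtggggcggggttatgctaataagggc
Ifitm2: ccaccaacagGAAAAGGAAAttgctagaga
Ifitm3: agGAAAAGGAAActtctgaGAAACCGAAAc
Ifitm1: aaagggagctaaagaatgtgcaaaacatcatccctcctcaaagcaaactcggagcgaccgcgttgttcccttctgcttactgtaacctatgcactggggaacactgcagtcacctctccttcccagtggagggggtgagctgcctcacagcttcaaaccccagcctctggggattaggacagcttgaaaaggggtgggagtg
The first ISRE core of Ifitm3 and the core of Ifitm2 have the same 10 letters, GAAAAGGAAA.

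Values are TPM, a relative abundance corrected for transcript length, so that levels can be set side by side between genes as well as between libraries. Each library sums to the same total and the number of reads behind it is unknown. Epha2 was 244.7 ± 5.11 TPM (SD, n = 4) in WT of 6694c2, 114.9 ± 18.3 in KOA and 97.8 ± 11.4 in KOB, a fall of both KO lines that passed the test (adjusted p 1.5e-08, limma on log2(TPM + 1) with Benjamini-Hochberg adjustment over all genes tested). The WT line of 6419c5 had 176.2 ± 13.5 TPM, KOA had 150.5 ± 6.05 and KOB had 197.1 ± 25.7 (n = 3 each), and the difference was not called (adjusted p 0.819). The transcript therefore does not check the labels of 6419c5, whose lines are called "labelled KO" below. Mir6236 took 2.27% to 5.45% of TPM in 19 libraries, 9.11% in WT library 3 of 6419c5 and 14.5% in KOB library 4 of 6694c2.

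Ifitm1 is the gene of a mostly cell-surface IFITM protein. In WT of 6694c2 it measured 21.2, 37.0, 46.5 and 40.1 TPM. In KOA it measured 163.6, 144.5, 320.3 and 355.8 TPM, and in KOB 6.94, 4.93, 3.02 and 5.28 TPM. Every KOA library lay above every WT library and every KOB library lay below, so the 3 lines stood apart from each other. The WT mean was 36.2 ± 10.8 TPM, the KOA mean 246.0 ± 107 TPM and the KOB mean 5.04 ± 1.61 TPM (SD, n = 4 each). The mean of KOA was 6.80 times that of WT, the mean of WT was 7.18 times that of KOB, and KOA and KOB differed 48.8-fold. These are the values that chose the gene and they carry no test. The lines lay on opposite sides of WT, 4 KO libraries above its range and 4 below it, and the mean of both against WT was 0.03 on the log2 scale, also given without a test. That sign turned negative with a pseudocount of 0.1 and with both other scalings.

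In 6419c5 Ifitm1 measured 30.7, 21.4 and 19.99 TPM in WT, 29.0, 19.8 and 20.5 TPM in KOA and 39.2, 34.3 and 28.4 TPM in KOB. The ranges of WT and of the line labelled KOA nearly coincided, and those of KOB and WT overlapped. The mean of both lines against WT was 0.22 ± 0.29 (log2, adjusted p 0.565). Over all 21 libraries Ifitm1 ran from 3.02 to 356 TPM, a 118-fold range, against 2.31-fold for Ifitm2 and 4.33-fold to 15.2-fold for the other 5 members. Ordered by mean, the lines ran from KOA of 6694c2 through WT of 6694c2, KOB, WT and KOA of 6419c5 to KOB of 6694c2. The first and the last stood apart from their neighbours, and the 4 in the middle overlapped.

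Marker levels of other cells also differed among the lines of 6694c2. The summed level of 8 fibroblast and pericyte markers was 190.0 to 282.7 TPM in WT, 535.97, 194.7, 579.5 and 710.5 TPM in the KOA libraries and 55.6 to 93.3 TPM in KOB. KOA library 2 thus lay within the WT range. Of the 8, 3 were called higher and 0 lower in KOA against WT, and 0 higher and 6 lower in KOB. Of all genes, 15.2% were called higher and 7.56% lower in KOA, and 29.2% and 19.4% in KOB. The 10 macrophage markers summed to 144.4, 281.1, 653.6 and 762.7 TPM in the KOA libraries, beside 153.9 to 1118 TPM in WT. Of 8 epithelial markers, all but Sox9 were lower in KOA libraries 3 and 4, where Ifitm1 was higher, than in libraries 1 and 2. Sox9 went the other way, with 182.1, 181.9, 285.8 and 304.3 TPM in the KOA libraries. None of these markers was at 0 in every library, and their part in the Ifitm1 values was not tested. In 6419c5 the fibroblast sum was 991 to 1954 TPM in WT, 501 to 613 TPM in KOA and 1254 to 1820 TPM in KOB. In such mixed RNA, fewer cells of a type and less RNA per cell cannot be told apart.

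**Figure D1:**
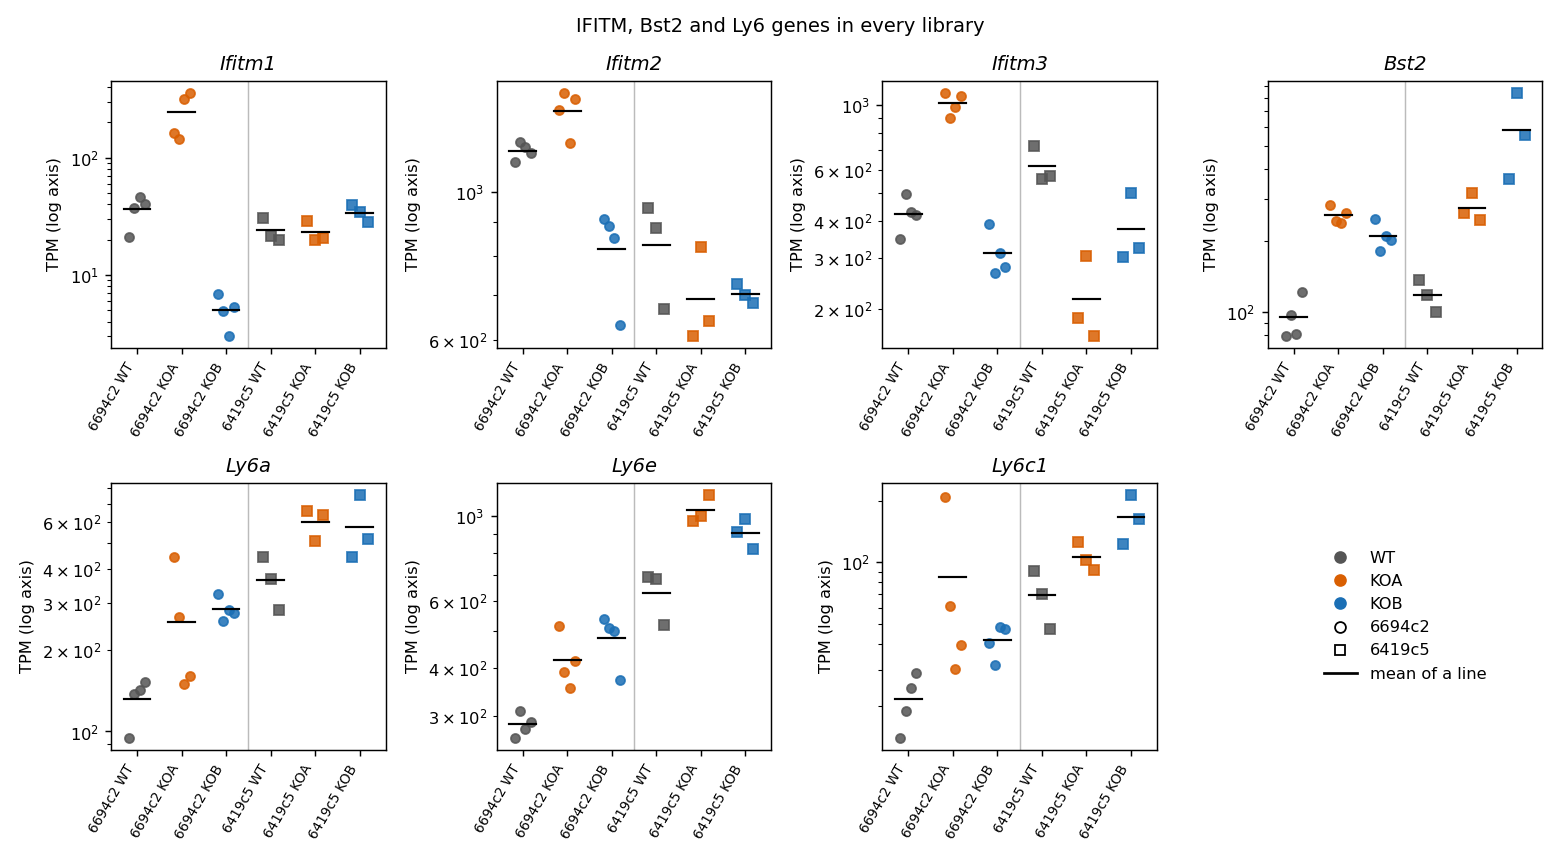
TPM of each member (vertical axis, log scale) in each of the 21 libraries by line (horizontal axis). Points are libraries, circles for 6694c2 and squares for 6419c5, and bars are line means. Ifitm1 spans 3.02 to 355.8 TPM within 6694c2, and Bst2 lies above the WT range in every KO library of both clones.

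Ifitm2, the gene of an endosomal family member, was the most abundant member by mean over the libraries (rank 140 among all genes) and moved least. In 6694c2 it measured 1111, 1188, 1169 and 1145 TPM in WT, 1328, 1406, 1183 and 1376 TPM in KOA and 909.0, 888.7, 852.8 and 632.4 TPM in KOB. Every KOB library lay below every WT library, while KOA overlapped WT in 1 library. KOB fell against WT by 0.50 ± 0.12 (log2, adjusted p 0.00184, lower in 4 of 4 libraries), and KOA differed by 0.20 ± 0.12 (adjusted p 0.259). The mean of both KO lines was not called (-0.15 ± 0.10, adjusted p 0.264).

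In 6419c5 Ifitm2 measured 944.2, 884.1 and 668.0 TPM in WT, 608.1, 826.8 and 639.6 TPM in KOA and 727.1, 700.4 and 680.7 TPM in KOB. The lines labelled KO overlapped WT, and 2 of the 6 libraries lay below its lowest value. The effect was -0.25 ± 0.12 (log2, adjusted p 0.109), and it was called without WT library 3 (-0.40, adjusted p 0.017), without KOA library 2 (-0.31, adjusted p 0.0353) and under 4 other settings. In the order of the lines, KOA and WT of 6694c2 overlapped at the top, stood apart from the rest, and the 4 lower lines overlapped in turn. Of the 31-base stretches in the annotated transcripts of Ifitm2, 55.52% also occur in another gene, mostly in Gm45717, which the table does not list, so its level depends on how such reads were assigned.

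Ifitm3 encodes the endosomal family member best known for restricting influenza virus. In 6694c2 it measured 349, 494, 431 and 420.0 TPM in WT, 1095, 897, 978 and 1067 TPM in KOA and 391, 266, 310.3 and 279 TPM in KOB. All KOA libraries lay above all other libraries of the clone, and 3 of 4 KOB libraries lay below the WT range. KOA rose against WT by 1.26 ± 0.18 (log2, adjusted p 8.84e-05), 2.38-fold by the means, and KOB differed by -0.45 ± 0.18 (adjusted p 0.0541). The mean of both KO lines, 0.41 ± 0.16, was not called (adjusted p 0.0534), and 8 of 30 alternative settings called it. In 6 of these 1 library was left out: WT library 2 (0.48, adjusted p 0.0442), KOA library 2 (0.43, adjusted p 0.0468) or KOB library 2 (0.44, adjusted p 0.0471) of 6694c2, or KOA library 2 (adjusted p 0.0224), KOA library 3 (adjusted p 0.0422) or KOB library 2 (adjusted p 0.0332) of 6419c5. KOB alone was called without WT library 1 (-0.53, adjusted p 0.0356) or KOB library 1 (-0.56, adjusted p 0.0249) of 6694c2, without those same 3 libraries of 6419c5 (adjusted p 0.0227 to 0.0426), and with median-of-ratios scaling (-0.52, adjusted p 0.026).

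In 6419c5 Ifitm3 measured 719.8, 556.8 and 572.3 TPM in WT, 186.4, 303.0 and 162.1 TPM in KOA and 302.2, 498.6 and 322.5 TPM in KOB. All 6 libraries of the lines labelled KO lay below the lowest WT library. Ifitm3 fell by 1.14 ± 0.18 (log2, adjusted p 7.68e-05). KOA fell by 1.54 ± 0.21 (adjusted p 2.44e-05), and KOB fell by 0.74 ± 0.21 (adjusted p 0.00892). KOA against KOB was -0.80 ± 0.21 (adjusted p 0.0148). This last difference was not called without KOA library 1 (adjusted p 0.0644), KOA library 3 (adjusted p 0.0801) or KOB library 2 (adjusted p 0.0959). The WT level of 6419c5 was 1.46 times that of 6694c2. Ifitm3 was the member whose KO effect differed between the clones, by 1.55 ± 0.24 (log2, 6694c2 less 6419c5, adjusted p 0.000133). Leaving Ifitm1 aside, 1 of 6 members was called in that comparison, beside 28.6% of all genes (13% higher, 15.6% lower).

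Markers of other cells also differed between the lines of 6419c5. Summed macrophage markers were 789 to 2107 TPM in WT, 184 to 296 TPM in KOB and 241.5, 3474 and 166.6 TPM in the KOA libraries, and KOA library 2, with the highest macrophage sum of all libraries, had the highest Ifitm3 of its line. Of the 10 markers 2 fell against WT, Lyz2 and Ccr2, and 8 were not called. Of 8 fibroblast markers 4 fell and 4 were not called. Summed epithelial markers were 5840 to 7821 TPM in WT and 12561 to 16528 TPM in the lines labelled KO, and 5 of 8 rose. These counts stand beside 26.5% of all genes called higher and 15% called lower in this clone. The part of these markers in the change of Ifitm3 was not tested.

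The make-up of the IFITM transcripts shifted with these levels. Ifitm2 held 71.6% ± 2.47 of the summed TPM of Ifitm1, Ifitm2 and Ifitm3 in WT of 6694c2, 51.4% ± 4.30 for KOA and 72.1% ± 3.55 for KOB (SD, 4 libraries each). Ifitm3 held 26.2% ± 2.12, 39.1% ± 2.41 and 27.5% ± 3.47, and Ifitm1 held 2.23% ± 0.60, 9.46% ± 3.87 and 0.448% ± 0.14 in the same order. KOB thus kept a split of Ifitm2 and Ifitm3 close to that of WT, with ranges that overlapped, while KOA did not overlap either. In 6419c5 Ifitm3 held 42.0% ± 3.69 in WT, 22.9% ± 3.33 in KOA and 33.3% ± 6.33 in KOB (n = 3 each), and Ifitm1 at most 3.67% in any library. No test was run on these shares.

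**Figure D2:**
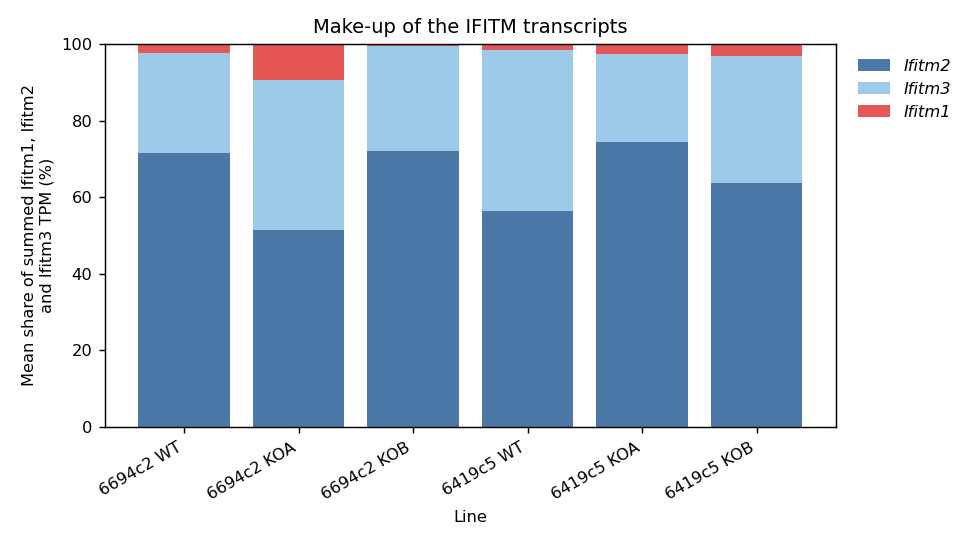
Mean share (vertical axis, percent) of Ifitm1, Ifitm2 and Ifitm3 in their summed TPM, by line (horizontal axis). Stacked segments are means over 4 libraries of 6694c2 lines and 3 of 6419c5 lines. The share of Ifitm3 is largest in WT of 6419c5, 42.0%, and smallest in KOA of 6419c5, 22.9%.

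Bst2 rose in every KO line of both clones. In 6694c2 it measured 79.4, 97.4, 81.2 and 121.5 TPM in WT, 283, 243, 237 and 262 TPM in KOA and 247, 181, 208 and 202 TPM in KOB. All 8 KO libraries lay above all WT libraries, and KOA and KOB overlapped. The KO effect was 1.29 ± 0.16 (log2, adjusted p 7.36e-06). Taken singly, KOA differed from WT by 1.44 ± 0.19 (adjusted p 2.86e-05) and KOB differed by 1.15 ± 0.19 (adjusted p 6.35e-05).

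In 6419c5 Bst2 measured 136.6, 118.5 and 100.4 TPM in WT, 260.5, 317.4 and 244.0 TPM in KOA and 364.9, 835.6 and 555.5 TPM in KOB. All 6 libraries of the lines labelled KO lay above WT, and all KOB libraries lay above all KOA libraries. The effect was 1.71 ± 0.19 (log2, adjusted p 1.31e-06). Taken singly, KOA differed from WT by 1.205 ± 0.22 (adjusted p 0.000363) and KOB differed by 2.23 ± 0.22 (adjusted p 3.78e-07), and KOA against KOB was -1.02 ± 0.22 (adjusted p 0.00363). The effects in the clones differed by -0.42 ± 0.25, which was not called (adjusted p 0.227) except without KOB library 1 of 6419c5 (-0.57, adjusted p 0.0449). The WT levels, 94.9 ± 19.5 TPM (n = 4) in 6694c2 and 118.5 ± 18.1 TPM (n = 3) in 6419c5, overlapped. In the order of the lines KOB of 6419c5 stood apart at the top, the 3 other KO lines overlapped in turn, and both WT lines lay below them. No 31-base stretch of the Bst2 transcripts occurs in another annotated gene.

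Ly6e rose by similar amounts in each KO line. In 6694c2 it measured 263, 309, 277 and 289 TPM in WT, 515, 391, 354 and 417 TPM in KOA and 538, 510.3, 501 and 372 TPM in KOB. All 8 KO libraries lay above WT, and the KO lines overlapped. The KO effect was 0.64 ± 0.11 (log2, adjusted p 0.000141). Taken singly, KOA differed from WT by 0.55 ± 0.13 (adjusted p 0.00434) and KOB differed by 0.74 ± 0.13 (adjusted p 8.07e-05).

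In 6419c5 Ly6e measured 691.3, 683.1 and 517.3 TPM in WT, 971.5, 999.9 and 1138 TPM in KOA and 907.4, 985.9 and 818.5 TPM in KOB. The 6 libraries of the lines labelled KO again lay above WT, and KOA and KOB overlapped. The effect was 0.63 ± 0.13 (log2, adjusted p 0.000615). Taken singly, KOA differed from WT by 0.73 ± 0.15 (adjusted p 0.000848) and KOB differed by 0.53 ± 0.15 (adjusted p 0.007). Between the clones the effects differed by 0.02 ± 0.17 (adjusted p 0.948). The WT level of 6419c5 was 2.22 times that of 6694c2 (adjusted p 1.7e-06), and the WT range of 6419c5 overlapped that of KOB of 6694c2. Of its 31-base stretches 0.42% occur in another gene.

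Ly6a rose in both clones, less firmly in 6419c5. In 6694c2 it measured 94.96, 137.5, 142.4 and 152.0 TPM in WT, 445.8, 265.4, 150.3 and 160.6 TPM in KOA and 322.5, 257.6, 281.8 and 274.6 TPM in KOB. Of the 8 KO libraries 7 lay above the WT range, and KOA library 3 lay within it. The KO effect was 0.98 ± 0.23 (log2, adjusted p 0.0026), and KOB alone rose by 1.12 ± 0.27 (adjusted p 0.00179) and KOA alone by 0.83 ± 0.27 (adjusted p 0.0309). The call in KOA ended when KOA library 1 or 2 (0.52 and 0.76, adjusted p 0.103 and 0.0607) or WT library 1 or 2 (0.68 and 0.86, adjusted p 0.104 and 0.0518) was left out, and with median-of-ratios scaling (adjusted p 0.0654).

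In 6419c5 Ly6a measured 444.7, 369.0 and 283.3 TPM in WT, 655.7, 510.5 and 633.6 TPM in KOA and 444.8, 755.6 and 518.9 TPM in KOB. All 6 libraries of the lines labelled KO lay above WT, KOB library 1 by less than 1 TPM. The effect was 0.68 ± 0.27 (log2, adjusted p 0.0473), and it stayed called in 9 of 30 alternative settings. Leaving out WT library 3 gave the lowest value (0.51, adjusted p 0.208), and the call was also lost without WT library 2, KOA library 1 or 3, KOB library 2 or 3, and without any single one of WT libraries 2 to 4 or the 4 KOB libraries of 6694c2, which share the estimate of spread (adjusted p 0.0529 to 0.101). Median-of-ratios and quantile scaling also ended it (adjusted p 0.102 and 0.101). Neither line alone was called (KOA 0.73, adjusted p 0.0794; KOB 0.63, adjusted p 0.103), except without KOA library 1 of 6694c2 (adjusted p 0.0222 and 0.0343). The WT level of 6419c5 was 2.78 times that of 6694c2 (adjusted p 0.000317).

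Ly6c1 was the least abundant Ly6 member and the most variable. In 6694c2 it measured 14.0, 19.0, 24.5 and 28.8 TPM in WT, 207.1, 61.1, 30.1 and 39.7 TPM in KOA and 40.4, 31.7, 48.5 and 47.1 TPM in KOB. All 8 KO libraries lay above WT, with KOA library 1 far above the other 7. The KO effect was 1.25 ± 0.35 (log2, adjusted p 0.00971), and 0.96 without KOA library 1 (adjusted p 0.00282). KOA rose by 1.54 ± 0.41 (adjusted p 0.0112, and 0.97 without library 1, adjusted p 0.0179). KOB differed by 0.96 ± 0.41 (adjusted p 0.0622), and was called without KOA library 1 (adjusted p 0.00447) or 3 (adjusted p 0.0404).

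In 6419c5 Ly6c1 measured 91.2, 69.8 and 47.3 TPM in WT, 125, 102 and 91.9 TPM in KOA and 123, 213 and 162 TPM in KOB. The 6 libraries of the lines labelled KO lay above WT, yet the effect of 0.95 ± 0.41 was not called (log2, adjusted p 0.0701). It was called without KOA library 1 (adjusted p 0.0057) or 3 (adjusted p 0.0461) of 6694c2. KOB rose by 1.26 ± 0.47 (adjusted p 0.0389), and the call ended when WT library 2 or 3 (adjusted p 0.0707 and 0.141) or KOB library 2 or 3 (adjusted p 0.129 and 0.0791) was left out and with median-of-ratios or quantile scaling (adjusted p 0.0703 and 0.0782), while KOA differed by 0.65 ± 0.47 (adjusted p 0.329). The WT level was 3.22 times that of 6694c2 (adjusted p 0.0045). Of the 31-base stretches of Ly6c1, 46.76% occur in another gene, 33.05% in Ly6c2, which reached at most 4.59 TPM in any library. Ly6a shares 21.92% of its stretches with Ly6c1, so reads of these genes may have been split between them.

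Among the libraries of 6694c2, Ly6a and Ly6c1 were highest in KOA library 1, which also led its line in several epithelial markers. Epcam measured 53.0, 10.8, 1.07 and 0.864 TPM in the 4 KOA libraries and Krt7 349, 99.1, 36.0 and 33.3 TPM, against 10.2 to 13.9 TPM and 77.4 to 89.9 TPM in WT. Library 1 was the highest of its line for 5 of 8 epithelial markers, 2 of 7 granulocyte markers, 2 of 8 T and NK cell markers, 1 of 10 endothelial markers, 1 of 8 fibroblast markers, 1 of 6 plasmacytoid dendritic cell markers, 0 of 6 B and plasma cell markers, 0 of 6 pan-leukocyte markers and 0 of 10 macrophage markers. Its summed granulocyte markers were the highest of the clone, 26.1 TPM, with S100a8 at 13.7 TPM and S100a9 at 8.17 TPM. Their part in the Ly6 values was not tested. Summed endothelial markers, a cell type that Ly6c1 is known to mark, were 20.6, 20.9, 31.96 and 37.6 TPM in the KOA libraries and at most 51.8 TPM in any library, and none of the 10 was at 0 in every library.

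Leaving Ifitm1 aside, 4 of 6 members rose and 0 fell in 6694c2, where 37.4% of all genes were called (23.9% higher, 13.5% lower). The 4 were Bst2, Ly6a, Ly6e and Ly6c1. In 6419c5, where 41.4% of all genes were called (26.5% higher, 15% lower), 3 of 7 members rose (Bst2, Ly6a and Ly6e) and Ifitm3 fell. As a description that includes Ifitm1, the median log2 fold change of the 7 was 0.64 in 6694c2 and 0.63 in 6419c5, beside 0.07 and 0.08 over all genes tested. Every KO library lay above every WT library for 3 members in 6694c2, against 9.4% of all genes, and for 4 in 6419c5, against 17.8%. Every KO library lay below for 0 members in 6694c2 (4.85% of all genes) and for Ifitm3 in 6419c5 (9.99%). The split of all calls depended on the scaling, with 3429 higher and 1932 lower in 6694c2 as deposited against 2801 and 2947 after median-of-ratios scaling. In 6419c5 it was 3796 and 2146 against 3240 and 3064. Median-of-ratios and quantile scaling changed no direction among the called members. With line as a random effect, no member was called in 6694c2 and Bst2 alone in 6419c5 (adjusted p 0.0306). That fit gave the libraries of a line a correlation shared by all genes. It still counted libraries in its degrees of freedom, so its p-values do not measure replication by line. Among all genes that fit called 83 as higher and 47 as lower for 6694c2, and 418 as higher and 171 as lower for 6419c5.

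**Figure D3:**
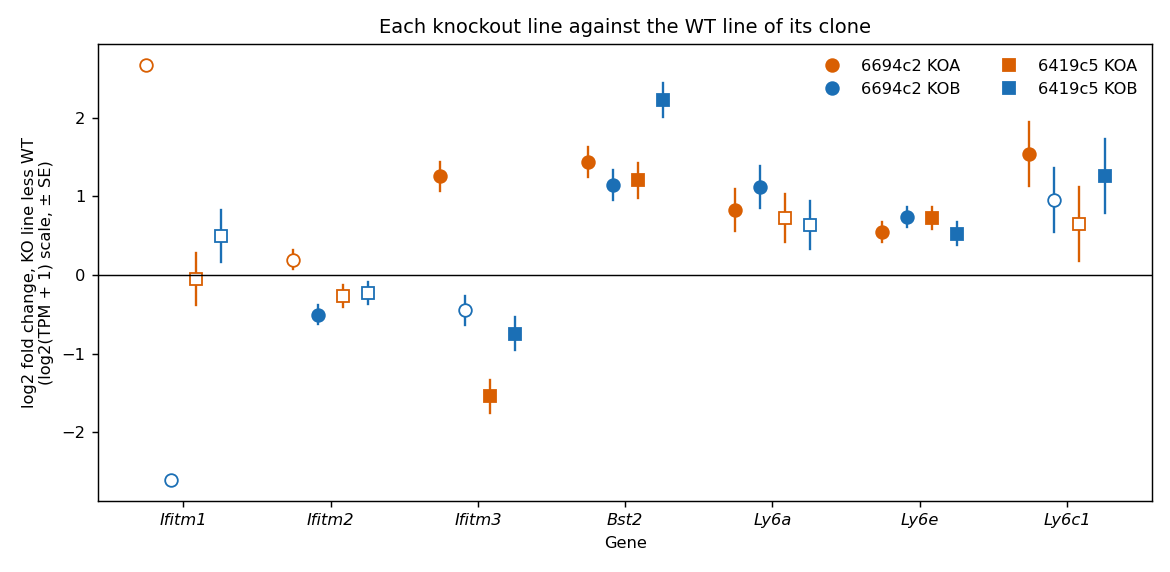
Log2 fold change of each KO line against the WT line of its clone (vertical axis, log2(TPM + 1) scale) for the 7 members (horizontal axis). Bars are standard errors, filled symbols were called at an adjusted p under 0.05 and open symbols were not called or, for Ifitm1 in 6694c2, not tested. The lines of a clone share their WT libraries. Bst2 and Ly6e are above 0 and called in all 4 lines, and Ifitm3 is above 0 in KOA of 6694c2 and below 0 in the others.

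Line by line, and leaving Ifitm1 of 6694c2 aside, KOA of 6694c2 had 5 of 6 members higher and 0 lower, where 22.7% of all genes were called (15.2% higher, 7.56% lower). KOB had 3 higher and 1 lower, where 48.6% were called (29.2% higher, 19.4% lower). In 6419c5 the line labelled KOA had 2 of 7 higher and 1 lower (31.8% called, 19.1% higher and 12.7% lower), and KOB had 3 higher and 1 lower (43.3% called, 28.5% higher and 14.7% lower). By ranges, 4 of the 6 lay wholly above WT in KOA of 6694c2 and 0 below, beside 17.5% and 9.72% of all genes, and in KOB 4 lay above and Ifitm2 below, beside 28.9% and 23.2%. In each line of 6419c5 4 of 7 lay above and Ifitm3 below, beside 23.9% and 16.2% for KOA and 32.1% and 18.4% for KOB. Bst2 and Ly6e were the members called higher in all 4 lines. Both lines of 6419c5 differed from each other in 2 members, Ifitm3 and Bst2, each lower in KOA, where 17.4% of all genes were called (4.76% higher in KOA, 12.7% lower). In 6694c2 KOA exceeded KOB, as a description without a test, 3.24-fold for Ifitm3, 2.02-fold for Ly6c1, 1.61-fold for Ifitm2 and 1.22-fold for Bst2 by mean TPM, while Ly6a and Ly6e had ratios of 0.900 and 0.872. Between the WT lines, 5 of 7 members differed, where 53.5% of all genes were called (21.5% higher in 6694c2, 32% lower): Ifitm2 was higher in 6694c2 by 0.49 ± 0.13 (adjusted p 0.00409), and Ifitm3, Ly6a, Ly6e and Ly6c1 were lower. Ifitm3 differed by -0.54 ± 0.20 (adjusted p 0.0287), a call lost with median-of-ratios scaling (adjusted p 0.0724) and without WT library 1 of 6694c2 (adjusted p 0.0854) or of 6419c5 (adjusted p 0.124). Ifitm1 differed by 0.54 ± 0.31 (adjusted p 0.152) and was called without WT library 1 of 6694c2 (0.77, adjusted p 0.0444).

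Across the 21 libraries, which fall into 6 lines and so are not independent points, the Ly6 members went together. Ly6a went with Ly6e (Pearson r 0.94 of log2(TPM + 1)) and Ly6c1 (0.92), and Ly6e with Ly6c1 (0.83). Ifitm2 and Ifitm3 had an r of 0.73, and 0.48 within lines. Ifitm1 had 0.61 with Ifitm2 and 0.72 with Ifitm3, values that rest on the same 6694c2 libraries that chose the set, and 0.00 and 0.24 within lines. Ifitm2 was inversely related to the Ly6 genes over all libraries (-0.45 to -0.69). Within lines the sign was the opposite, with r of 0.19 for Ly6a, 0.66 for Ly6e and 0.14 for Ly6c1. After subtraction of the line means, Ly6a and Ly6c1 kept an r of 0.93, while Ly6a and Ly6e had 0.63. Ly6a shares 21.92% of its 31-base stretches with Ly6c1, and Ly6e shares 0.42% with any other gene. KOA library 1 of 6694c2 was the highest of its clone for both Ly6a and Ly6c1. The part of shared stretches and of that library in these r was not tested. Within lines Ifitm3 went with Bst2 (0.75, against -0.07 over all libraries). Bst2 went with Irf1 (0.90, and 0.76 within lines), which encodes an interferon-induced transcription factor. Ifitm1 had -0.05 with Irf1 over all libraries, which include those that chose the set, and 0.29 within lines. Ifitm3 had -0.14 with Irf1 over all libraries and 0.69 within lines.

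**Figure D4:**
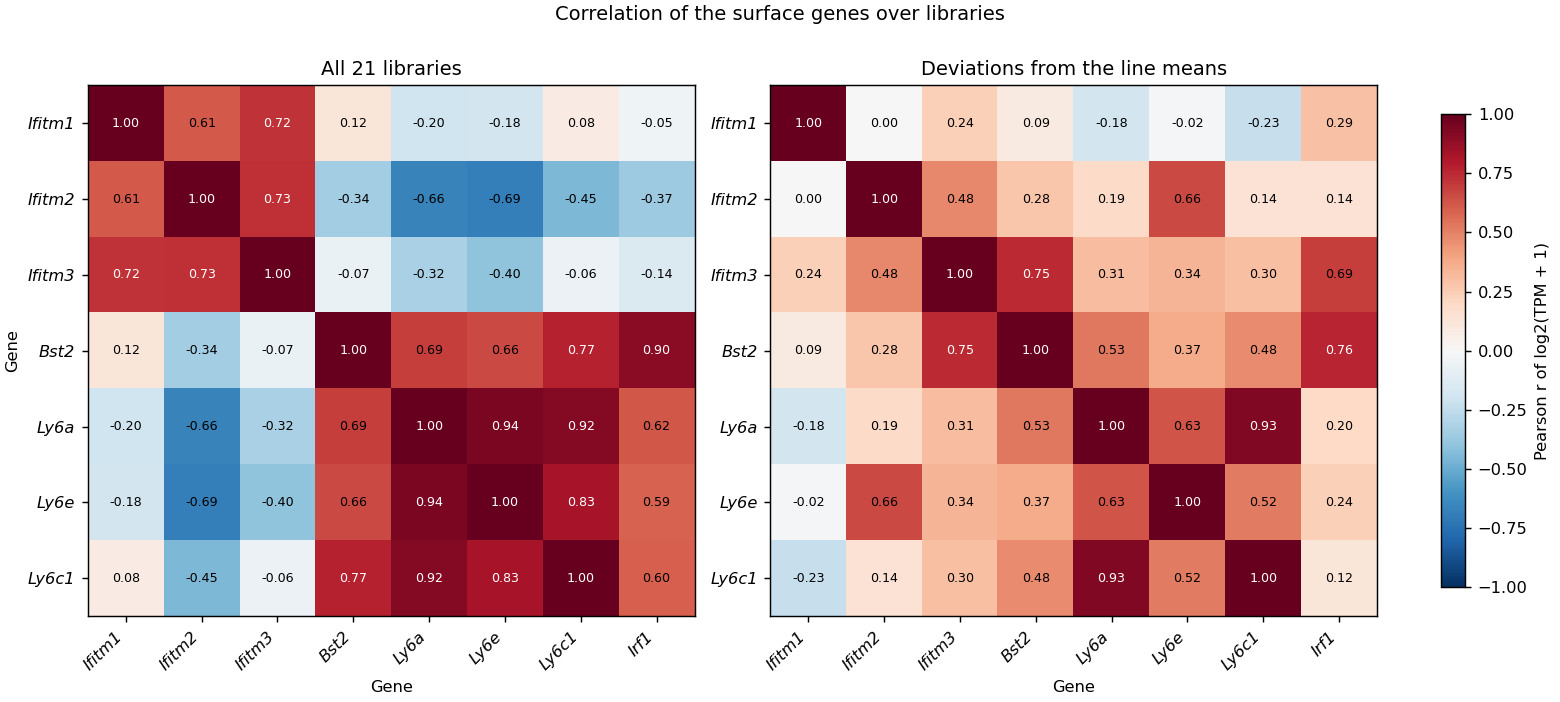
Pearson r of log2(TPM + 1) between members and with Irf1 (both axes, genes) over all 21 libraries (left) and over deviations from the 6 line means (right). Colour and the number in each cell give r. Ly6a and Ly6c1 have 0.92 and 0.93, while Ifitm3 and Bst2 have -0.07 and 0.75.

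Among 12084 genes compared over the same 21 libraries, those most like each member by Pearson r differed from member to member. For Bst2 they were Socs1 (0.97), a feedback inhibitor of Janus kinases, Ifi203 (0.94), Pawr (0.93), Cxcl10 (0.93), an interferon-induced chemokine, and Ubd (0.93). For Ifitm1 they were Tmcc2 (0.94), Kctd11 (0.93), Pir (0.91), Acap1 (0.91) and Usp43 (0.91), but this ranking rests on the libraries that chose the set, and within lines r was 0.16 to 0.46. Within lines the genes most like Bst2 had r from 0.19 (Pawr) to 0.82 (Socs1). Ifitm3 was most like Stx6 (0.92, and 0.57 within lines), Slc41a1 (0.89 and 0.04) and Sema4c (0.87 and 0.36). Ifitm2 was most like Evl (0.93 and 0.80) and Rps4x (0.93 and 0.65). Ly6a was most like Ly6e, Gstt1 (0.92, and 0.66 within lines) and Ly6c1. Ly6e was most like Anxa13 (0.97 and 0.38), Cptp (0.96 and 0.51) and Nr1h4 (0.96 and 0.32). Ly6c1 was most like Ly6a, followed by Tbcb (0.84 and 0.35).

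The other IFITM genes were low. Ifitm5, a bone-associated member, had line means from 1.78 to 4.84 TPM, Ifitm6 from 0.303 to 1.75 TPM and Ifitm7 from 1.61 to 3.30 TPM, and none was called in either KO effect. Ifitm10 fell in 6419c5, from 11.02 ± 2.2 TPM in WT to 3.86 ± 0.48 in KOA and 4.47 ± 1.02 in KOB (n = 3 each, -1.22 ± 0.16 on the log2 scale, adjusted p 7.19e-06), and differed by -0.10 ± 0.14 in 6694c2 (adjusted p 0.616). For Ifitm10 the clones differed by 1.12 ± 0.21, which was called (adjusted p 0.000568), as was the difference for Ifitm3. Of 7 IFITM genes, 0 rose and 2 fell in 6419c5, beside 26.5% and 15% of all genes. In 6694c2, leaving Ifitm1 aside as not tested, no IFITM gene was called in the KO effect, beside 37.4% of all genes.

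Of 38 genes listed for the Ly6/uPAR family, 16 were tested. In 6694c2 6 rose, 2 fell and 8 were not called, and in 6419c5 6 rose, 1 fell and 9 were not called, beside 37.4% and 41.4% of all genes called in the clones. The members are among them. Lypd8, which in the gut keeps flagellated bacteria from the epithelium, rose in both (1.79 ± 0.38, adjusted p 0.00112, and 1.56 ± 0.44, adjusted p 0.00784), with line means of 0.111 TPM in WT, 0.860 TPM in KOA and 8.10 TPM in KOB of 6694c2. Lynx1, a modulator of nicotinic receptors, rose in both too (0.64 ± 0.15, adjusted p 0.00198, and 0.85 ± 0.17, adjusted p 0.000517), in 6694c2 through KOB, with means of 2.25 TPM in WT, 2.204 TPM in KOA and 7.19 TPM in KOB. Slurp1, a secreted family member of skin and mucosa, rose in 6694c2 (2.01 ± 0.37, adjusted p 0.000337), where it stood at 5.50 ± 2.11 TPM in WT, 6.82 ± 5.67 TPM in KOA and 96.1 ± 24.5 TPM in KOB. Plaur, the urokinase receptor, fell in KOB of 6694c2 (188 TPM against 368 TPM in WT, adjusted p 1.91e-06), while KOA had 404 TPM (adjusted p 0.541). In 6419c5 Plaur rose in KOB (262 TPM against 181 TPM in WT, adjusted p 0.00456), and KOA had 202 TPM (adjusted p 0.426).

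The interferon pathway around the members was read from lists. None of 21 interferon ligand genes passed the filter, 15 were listed at 0 in every library and the highest value was 0.859 TPM (Ifne). Of 9 receptor and Janus kinase genes 2 rose and 2 fell in 6694c2, and 5 rose and 0 fell in 6419c5, beside the same shares of all genes. Both chains of the interferon gamma receptor rose in KOB of 6694c2, in KOA of 6419c5 and in KOB of 6419c5. Ifngr1 had means of 63.1 TPM in WT, 61.2 TPM in KOA and 107.1 TPM in KOB of 6694c2 (adjusted p 0.771 and 8.5e-06 against WT), and Ifngr2 had 67.4, 69.8 and 107.2 TPM (adjusted p 0.753 and 1.18e-05). Of 7 transcription factor genes 7 rose in 6694c2 and 6 in 6419c5. Irf1 rose by 1.55 ± 0.17 and 1.395 ± 0.19 (adjusted p 1.07e-06 and 1.42e-05). Among 7 feedback genes 4 rose and 2 fell in 6694c2 and 3 rose and 1 fell in 6419c5, with Socs1 and the ubiquitin-like Isg15 higher and the phosphatase Ptpn2 lower in both.

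Of 26 other interferon-induced antiviral effectors, 25 rose in 6694c2 and 24 in 6419c5, and 0 fell in either. Gbp2, a guanylate-binding protein that acts on pathogen-containing vacuoles, rose by 3.23 ± 0.31 and 4.17 ± 0.36 (adjusted p 3.59e-07 and 8.27e-08). Their median log2 fold changes were 1.32 and 1.43, above every member in 6694c2 and, in 6419c5, below Bst2 and above the other 6 members. By line in 6694c2, 21 of the 26 rose in KOA and 25 in KOB, beside 15.2% and 29.2% of all genes called higher. Among surface genes of antigen presentation and T cell contact, 5 of 7 rose in each clone, and 0 fell in 6694c2 and 2 in 6419c5. The 2 were Cd80 (-0.57, adjusted p 0.0492) and Cd86 (-1.13, adjusted p 0.0366), the costimulatory ligands of CD28. H2-K1, H2-D1 and B2m, which make up class I molecules, had log2 fold changes of 2.84, 2.21 and 2.04 in 6694c2 beside 3.07, 2.53 and 1.54 in 6419c5 ( adjusted p from 7.79e-09 to 5.23e-06).

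**Figure D5:**
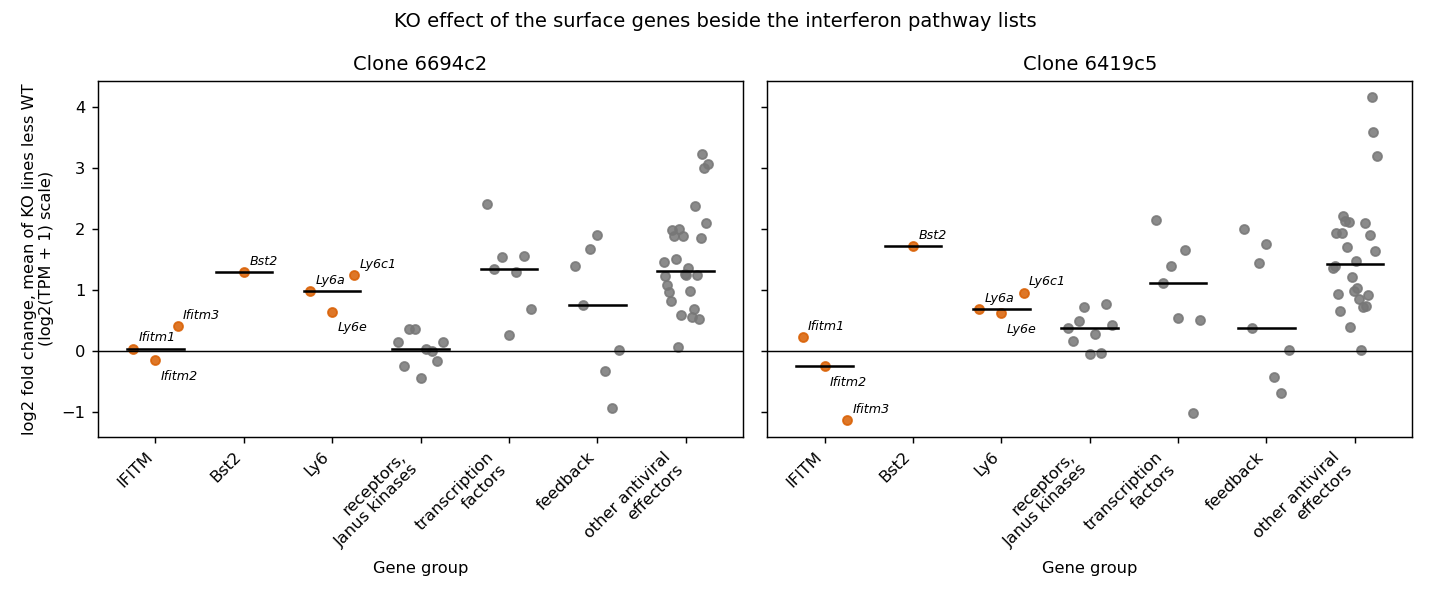
Log2 fold change of the mean of both KO lines against WT (vertical axis, log2(TPM + 1) scale) in each clone for the members (orange) and the interferon lists (grey), by gene group (horizontal axis). Points are genes and bars are group medians. Bst2 lies at 1.29 and 1.71, near the medians of the other effectors, 1.32 and 1.43, while Ifitm3 lies at 0.41 and -1.14.

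Neighbouring genes on the chromosome were also counted. Of 14 tested genes listed around the Ifitm cluster, members included, 5 rose and 0 fell in 6694c2 and 6 rose and 1 fell in 6419c5. Ifitm1 is among the 14 but not among those that rose or fell, and its effect in 6694c2 is not read as a test. Of 15 around Bst2, itself included, 5 rose and 2 fell in 6694c2 and 9 rose and 1 fell in 6419c5. By line in 6419c5, 2 of the 15 rose and 1 fell in KOA, beside 19.1% and 12.7% of all genes. In KOB 12 rose and 1 fell, beside 28.5% and 14.7%. For KOA against KOB of 6419c5, 0 of the 15 were higher and 11 lower, beside 4.76% and 12.7%. A relation of Bst2 to its neighbours was not tested. Of all genes, 37.4% and 41.4% were called in the clones. B4galnt4, next to the Ifitm cluster, rose by 0.98 ± 0.13 in 6694c2 (log2, adjusted p 1.32e-05) and in 6419c5 had means of 3.54 TPM in WT, 2.37 TPM in KOA (adjusted p 0.0706) and 8.81 TPM in KOB (adjusted p 5.83e-05).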

How the data were processed

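Gene-level TPM of 21 libraries of sorted tumour cells were deposited by the authors, made with Salmon on mm10 per the submitters' processing notes. Its version, the transcript annotation and how transcripts were summed per gene are not given in the sources used here. TPM keeps no depth, so no counting interval is given and the spread between libraries is the precision. Columns were assigned to groups by clone and by the KOA or KOB in their names. The titles number these lines instead, and nothing ties a letter to a number.

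Values were analysed as log2(TPM + 1), so fold changes of low genes are understated. A gene was tested where 3 or more libraries reached 1 TPM. A linear model with moderated variances and a mean trend (limma 3.58.1 in R 4.3.3, with statmod 1.5.0) held a mean for each of the 6 lines and had 15 residual degrees of freedom, plus 3.12 from the prior. For each clone, the KO effect is the mean of both KO lines less WT. Tests were two-sided, adjusted by Benjamini-Hochberg over all 14337 genes, and called under 0.05. The model was tested on simulated data. Figures and sequence searches used Python 3.11.15, numpy 2.4.6, pandas 2.3.3 and matplotlib 3.10.9. Positions came from GENCODE vM21 and promoter windows from RefSeq.

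The members, the gene lists and the tests were chosen with earlier results of these data known. Named genes are the 7 members, the tested IFITM and Ly6/uPAR genes, up to 4 genes per list with the smallest p in a KO effect, and the 5 genes with the highest r to a member among those with a mean of at least 2 TPM. Epcam, Krt7, Sox9, S100a8, S100a9, Cd80 and Cd86 were named after their values were seen.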

Additional observations from a re-analysis of the deposited data

Results flagged for a closer look

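Among the members, the KO effect of Ifitm3 was the result that differed between the clones by a test of the difference itself. It was 0.41 ± 0.16 in 6694c2 and -1.14 ± 0.18 in 6419c5 (log2, SE), a difference of 1.55 ± 0.24 with an adjusted p of 0.000133 (limma, all genes tested). The value in 6694c2 averages lines on opposite sides of WT, KOA at 1.26 ± 0.18 and KOB at -0.45 ± 0.18 (adjusted p 0.0541, not called). Both lines of 6419c5 lay below WT, KOA at -1.54 ± 0.21 and KOB at -0.74 ± 0.21. In 6694c2 all 4 KOA libraries lay above the WT range and 3 of 4 KOB libraries below it. In 6419c5 6 of 6 libraries labelled KO lay below the WT range. With line as a random effect the difference was not called (adjusted p 0.624). The 21 groups of 4 libraries, 7 members in each line of 6694c2, held no library that stood apart by Dixon's criterion.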

How the results depend on the processing

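The settings tried were a pseudocount of 0.1, no filter, median-of-ratios and quantile scaling, a robust fit, line as a random effect, a replicate block and leaving out each library. Leaving out the 2 libraries of highest Mir6236 and rescaling without Mir6236 were chosen after seeing the data, because no library passed the planned threshold of 10 times the median. Numbers of members called kept within 1.5 times their main value in 257 of 265 cases. With line as a random effect they were 0 for the KO effect in 6694c2 and 1 in 6419c5. They were 0 for the difference of the clones and 1 for WT against WT. That fit correlates the libraries of a line but still counts libraries in its degrees of freedom. Leaving out libraries moved the count for KOA against KOB of 6419c5 between 1 and 2 (1 without KOA library 1, KOA library 3 or KOB library 2) and that for the difference of the clones between 1 and 2 (2 without KOB library 1 of 6419c5, which adds Bst2). The labels do not say whether library numbers pair the samples. Deviations of same-number libraries had r from -0.15 to 0.17, above 0.1 in 6 of 21 pairs, and unlike numbers had r from -0.34 to 0.29. No pairing was evident from these values, which cannot exclude it. With the replicate block 4 members were called in 6694c2 and 3 in 6419c5, and Ly6a lost its call in 6419c5 (adjusted p 0.0768) and in KOA of 6694c2 (adjusted p 0.0599), as did Ly6c1 in KOB of 6419c5 (adjusted p 0.0637). Directions turned only for differences near 0 that were not called or, for Ifitm1 in 6694c2, not tested. The Ifitm1 KO effect in 6694c2 was -0.056 with a pseudocount of 0.1, -0.047 with median-of-ratios scaling and -0.0021 with quantile scaling. It was -0.20 to 0.17 when libraries were left out. Over the libraries left out, the difference of the clones was -0.054 to 0.155 for Ly6e and -0.0067 to 0.243 for Ifitm2, Ifitm1 in KOA of 6419c5 was -0.21 to 0.14, and KOA against KOB of 6419c5 was -0.17 to 0.0498 for Ifitm2 (0.031 with median-of-ratios scaling) and -0.070 to 0.31 for Ly6a. The cause was not tested. Quantile scaling moved the median of all genes from 0.10 to -0.01 for KOB against WT in 6419c5 and from -0.11 to 0.00 for WT against WT. Depth is unknown, so low values such as Ifitm1 in KOB of 6694c2 have no counting error.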
